A study of Homo sapiens with 4 samples.

Results

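The genes described here are 37 human protein-coding genes whose products cut the 3′ end of messenger RNA, add or bind the poly(A) tail, or release RNA polymerase II (Pol II) from the gene. They were taken by name from the 20033 protein-coding genes that GENCODE release 44 places on the primary chromosomes of GRCh38. The data were Pol II chromatin immunoprecipitation (ChIP) peaks from cultures of SK-OV-3, a long-established line of human ovarian cancer cells, that carried a lentiviral short hairpin RNA. One culture expressed a hairpin against RRN3 (shRRN3), an initiation factor of RNA polymerase I, and the control culture expressed a hairpin against bacterial LacZ (shLacZ). The study asked how knocking down RRN3 changed Pol II coverage from the transcriptional start site (TSS) to the transcriptional termination site (TTS).

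Each hairpin had 1 Pol II library, and the 2 input libraries named by the labels were not analysed here. Which of the study's RRN3 hairpins was used is not stated in the sources used here. With 1 library per hairpin there was no replicate spread and no test, and a difference between the lists cannot be told apart from a difference between the libraries. The peaks numbered 4014 for shLacZ and 14363 for shRRN3, the peak files give no read numbers, and a peak list cannot show how far RRN3 itself was reduced. Counts over the regions of the genes are therefore set beside the share of all protein-coding genes in the same list. Each peak carries a score from the peak caller, at least 50 in both lists, and scores are ranked only within a list. Of the 5 genes chosen as markers of SK-OV-3, PAX8 had a TSS peak in shLacZ and PAX8, KRT8, KRT18 and EPCAM had one in shRRN3, while ERBB2 had none. None of the 4 blood cell markers had a peak in either list.

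Pre-mRNA is cut and polyadenylated while Pol II is still transcribing. The cleavage and polyadenylation specificity factor reads the AAUAAA hexamer and makes the cut, cleavage factor I binds upstream UGUA elements, and the cleavage stimulation factor binds the downstream GU-rich element. Cleavage factor II and the exonuclease XRN2 then act on the RNA that is still attached to Pol II, while phosphatases act on the polymerase and its elongation factors, and transcription ends. Cells that lose these factors are known for polymerases that run past the normal ends of genes.

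Near the TSS the 3′ end genes carried Pol II peaks more often than protein-coding genes did as a whole, in both lists. A TSS peak was one whose midpoint lay within 1 kb of the gene's outermost GENCODE start. In shLacZ, 9 of the 37 genes had one, or 24.3% beside 7.56% of all protein-coding genes. In shRRN3, 21 of 37 had one, or 56.8% beside 23.7%. The 8 genes with a TSS peak in both lists were CPSF2, CPSF6, CSTF3, PCF11, PABPN1, PABPC1, SCAF8 and SSU72, which is 21.6% of the members beside 6.41% of all genes. PAPOLG had a TSS peak in shLacZ alone (2.70% of members beside 1.15% of all genes). In shRRN3 alone 13 genes had one (35.1% beside 17.3%), and 15 had one in neither list (40.5% beside 75.1%).

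The upstream sequences of 6 of these genes are shown because their peaks show the patterns that the results turn on. PAPOLG had a TSS peak in shLacZ alone, PABPN1, PCF11 and CPSF6 had one in both lists, and RPRD2 and WDR82 had peaks at an internal start that the outermost gene bound misses. Each line is the 150 bases before the RefSeq start on GRCh38.p14, 5′ to 3′ on the gene's strand. Capitals mark every match, on either strand, to the CCAAT box, the GC box GGGCGG, the ETS core CGGAAG, the E-box CACGTG, the TATA box TATAAA, the YY1 core AAGATGGC and the NRF1 core GCATGCGC, and matches can overlap. The stretches are PAPOLG at chr2:60756118-60756267 (+), PABPN1 at chr14:23321307-23321456 (+), PCF11 at chr11:83156981-83157130 (+), CPSF6 at chr12:69239419-69239568 (+), RPRD2 at chr1:150363997-150364146 (+) and WDR82 at chr3:52278650-52278799 (-).
PAPOLG: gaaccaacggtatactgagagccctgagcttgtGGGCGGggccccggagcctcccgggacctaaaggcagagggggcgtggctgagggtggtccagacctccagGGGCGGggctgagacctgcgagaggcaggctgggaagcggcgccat
PABPN1: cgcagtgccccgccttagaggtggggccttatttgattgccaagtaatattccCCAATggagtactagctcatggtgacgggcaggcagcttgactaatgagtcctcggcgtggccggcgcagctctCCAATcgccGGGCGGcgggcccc
PCF11: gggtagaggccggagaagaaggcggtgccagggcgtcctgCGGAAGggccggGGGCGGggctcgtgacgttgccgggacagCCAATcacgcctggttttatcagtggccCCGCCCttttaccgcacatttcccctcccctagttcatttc
CPSF6: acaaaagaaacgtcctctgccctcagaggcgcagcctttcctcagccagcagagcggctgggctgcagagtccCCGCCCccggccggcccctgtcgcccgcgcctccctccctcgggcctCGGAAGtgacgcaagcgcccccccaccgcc
RPRD2: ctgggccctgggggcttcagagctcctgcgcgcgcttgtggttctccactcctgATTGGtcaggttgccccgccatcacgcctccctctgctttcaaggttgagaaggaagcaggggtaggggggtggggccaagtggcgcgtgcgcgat
WDR82: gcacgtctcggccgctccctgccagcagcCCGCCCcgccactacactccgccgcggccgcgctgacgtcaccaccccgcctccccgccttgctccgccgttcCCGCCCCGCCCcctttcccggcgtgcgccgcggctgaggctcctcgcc

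The PABPN1, CPSF6 and WDR82 stretches lay wholly inside a peak of each list. The PCF11 and RPRD2 stretches lay wholly inside a shRRN3 peak, while the shLacZ peak at PCF11 began inside the stretch and that at RPRD2 began beyond it. The shLacZ peak at PAPOLG covered all but the first bases of its stretch.

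Upstream sequences were found in the RefSeq table for 33 of the 37 genes. SCAF4, PPP1CA, CPSF1 and PABPC1 had no entry. Over the 250 bases before the start, the ETS core CGGAAG, on either strand, occurred in 18 of the 33 genes (54.5%) beside 22.8% of 15345 promoters. Among all promoters it was found in 34.0% of those with a TSS peak in shLacZ, 36.5% of those with one in shRRN3 and 18.0% of those with none in either list. Among the 3′ end genes it was found in 12 of the 19 with a shRRN3 TSS peak (63.2%) and in 6 of the 13 with none in either list (46.2%). CCAAT occurred in 36.4% of the members beside 34.9%, GGGCGG in 66.7% beside 59.4%, CACGTG in 9.09% beside 7.94%, and TATAAA in 6.06% beside 9.09%. AAGATGGC was in 2 members (6.06% beside 1.36%) and GCATGCGC in 1 (3.03% beside 3.94%). Median GC content of the 300-base RefSeq window was 62.3% in the members and 63.0% over all promoters. These matches describe letters and not binding.

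**Figure D1:**
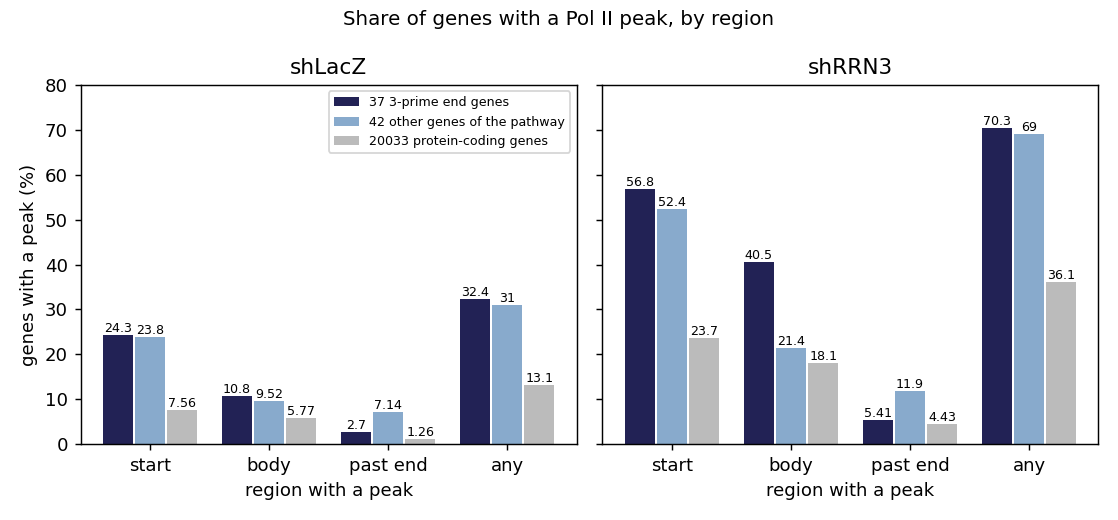
Share of genes (%) with a Pol II peak within 1 kb of the start, in the body, within 2 kb past the end, or in any of these, in shLacZ (left) and shRRN3 (right), for the 37 genes, 42 other genes of the pathway and 20033 protein-coding genes. At the start the 37 genes stood at 24.3% and 56.8% beside 7.56% and 23.7% of all genes. Each bar rests on 1 library.

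The body, from 1 kb past the start to the end of the gene, held a peak in 4 of the 37 genes in shLacZ (10.8% beside 5.77%) and in 15 in shRRN3 (40.5% beside 18.1%). Within 2 kb past the end, SCAF4 alone had a peak in shLacZ (2.70% beside 1.26%), and CPSF7 and PABPN1 had one in shRRN3 (5.41% beside 4.43%). In any of these regions, 12 genes had a peak in shLacZ (32.4% beside 13.1%) and 26 in shRRN3 (70.3% beside 36.1%). The shares of members stood above the background at the start in both lists and in the body in shRRN3, where the share past the end lay close to it. With only the 3920 highest shRRN3 peaks kept, the shRRN3 body share was nearer the background, 8.11% beside 6%. The body share in shLacZ rests on 4 genes. It was 0% beside 2.61% when peaks had to reach the median shLacZ score, and 2.70% beside 3.4% when peaks beside any transcript start were left out. The 42 other genes of mRNA 3′ end formation gave nearby values at the start, 23.8% in shLacZ and 52.4% in shRRN3. In the body they gave 9.52% and 21.4%, and past the end 7.14% and 11.9%.

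**Figure D2:**
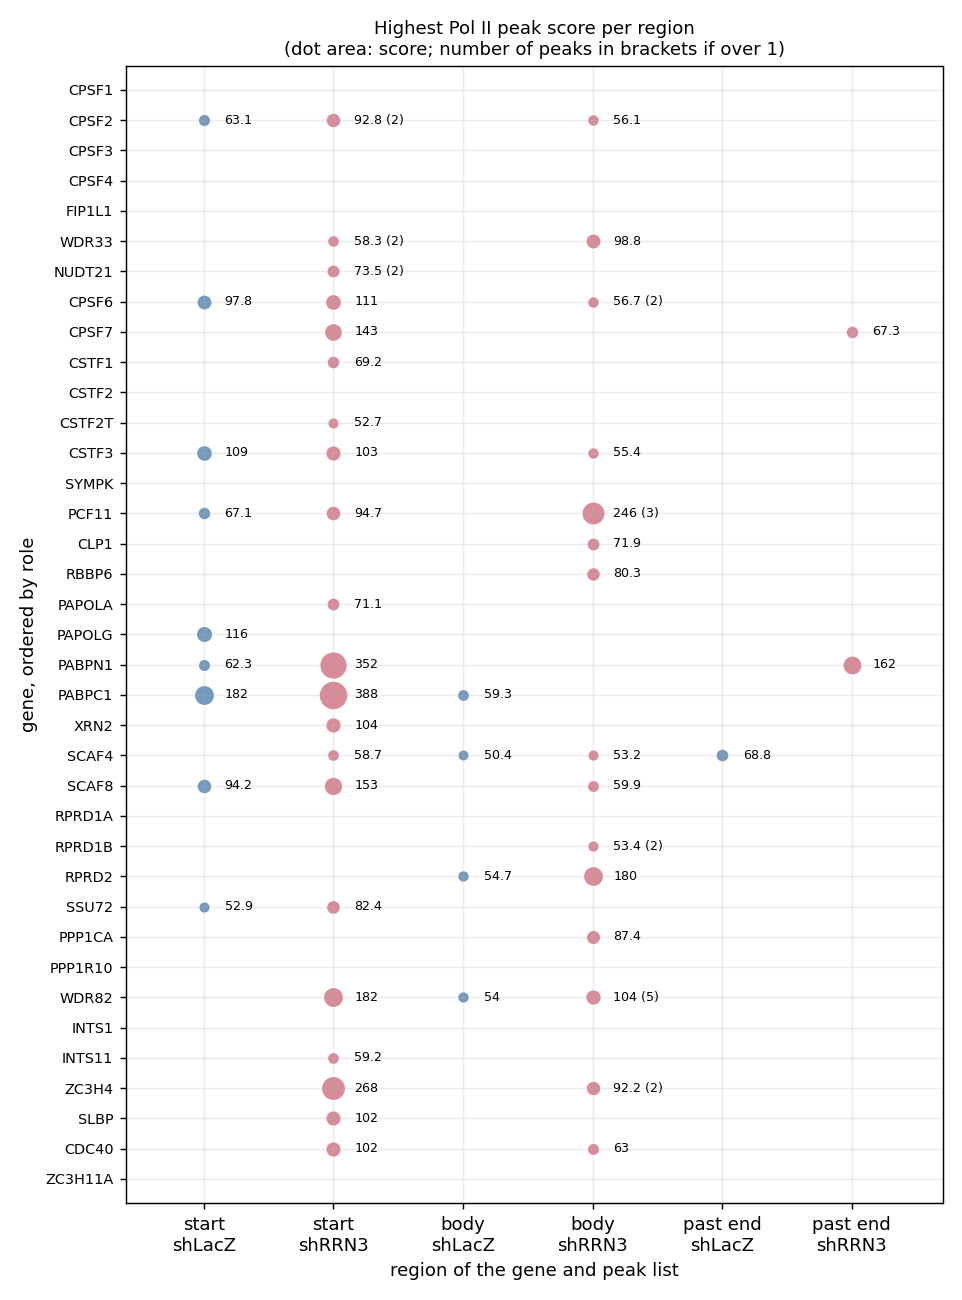
Highest peak score for each of the 37 genes (rows, ordered by role) at the start, in the body and past the end in each list (columns). Dot area and printed number give the score, with the number of peaks in brackets where it exceeds 1. In each region the shLacZ column is the sparser, and shLacZ had a peak in any region of 12 genes, against 26 in shRRN3. The largest dots are PABPC1 and PABPN1 at the start in shRRN3.

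In the cleavage and polyadenylation specificity factor, 2 of 6 genes had a peak. CPSF1, CPSF3, CPSF4 and FIP1L1 had none in any region of either list, which was also the case for 62.5% of all protein-coding genes. CPSF3 is the endonuclease and CPSF4 reads the hexamer. CPSF2, a noncatalytic homologue of CPSF3, had a shLacZ TSS peak with a score of 63.1 and 797 bp width. In shRRN3 the same stretch held 2 separate peaks of 90.2 and 92.8, and a narrower one of 56.1 in intron 1. WDR33, which contacts the AAUAAA hexamer, had no peak in shLacZ. Its shRRN3 TSS peaks scored 57.0 and 58.3, which put them at percentiles 14.1 and 16.3 of all shRRN3 TSS peaks. Its strongest shRRN3 peak, 98.8, lay in exon 22, with its midpoint at -352.5 bp from the gene's end. That peak also stood within 1 kb of the start of SFT2D3, so the position cannot be assigned to WDR33 alone.

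All 3 subunits of cleavage factor I had a TSS peak in shRRN3, and CPSF6 also had one in shLacZ. CPSF6, one of the larger subunits, had a score of 97.8 in shLacZ, percentile 77.3 of that list's TSS peaks. In shRRN3 it had 111, percentile 67.6, over 847 bp instead of 520 bp, and low peaks of 56.7 and 53.4 in introns 1 and 9. CPSF7, the alternative larger subunit, had a shRRN3 TSS peak of 143, which was within 1 kb of the divergent start of SDHAF2. NUDT21, which binds UGUA, had shRRN3 peaks of 73.5 and 65.7. The former was within 1 kb of the start of OGFOD1. The latter lay inside OGFOD1, at -1797.5 bp from the NUDT21 MANE Select start. Neither CPSF7 nor NUDT21 had a peak in shLacZ.

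Of the cleavage stimulation factor genes, CSTF3 stood alone in having a TSS peak in both lists. CSTF3, the scaffold subunit, had scores of 109 in shLacZ and 103 in shRRN3, percentiles 83.5 and 62.6. Measured from its MANE Select start, the single transcript per gene on which RefSeq and Ensembl agree, the midpoints were at -71.5 and -28.5 bp. CSTF3 also had a low shRRN3 body peak of 55.4 in intron 17. CSTF1 and CSTF2T had a TSS peak in shRRN3 alone, with scores of 69.2 and 52.7. The CSTF1 peak was within 1 kb of AURKA, and CSTF2T, the intronless copy of CSTF2, lies inside an intron of PRKG1. CSTF2, the subunit that binds RNA, had no peak.

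PCF11 had the highest-scoring peak counted in the body of any of the 37 genes, though it lay close to the start. PCF11 is the cleavage factor II subunit that binds the Pol II tail and promotes termination. Its shLacZ TSS peak, at 83157021 to 83157469 on chromosome 11, scored 67.1. In shRRN3 a TSS peak of 94.7 covered the upstream part of that interval, and a body peak of 246 began 40 bp beyond its end and ran for 1265 bp into intron 1. That score was at percentile 96.1 of all shRRN3 peaks. The peak's midpoint was 1153 bp from the outermost start and 1010 bp from the MANE start, just outside the 1 kb limit. A further intron 1 peak of 84.1 lay 3454 bp from the MANE start, and one of 80.8 lay 701 bp past the MANE end. PCF11 is known to have a poly(A) site in its first intron, and no use of that site was measured here. The last of these peaks was beside the antisense gene PCF11-AS1, and ChIP does not separate the strands.

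The other genes of this role had peaks at internal starts only. CLP1, the RNA kinase partner of PCF11, had a shRRN3 peak of 71.9 at -73 bp from its MANE start. RBBP6, a ubiquitin ligase of the cleavage complex, had one of 80.3 at -97 bp. Both were counted in the body, because the outermost transcript of each gene begins further upstream. SYMPK, the scaffold of the complex, had no peak in either list.

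**Figure D3:**
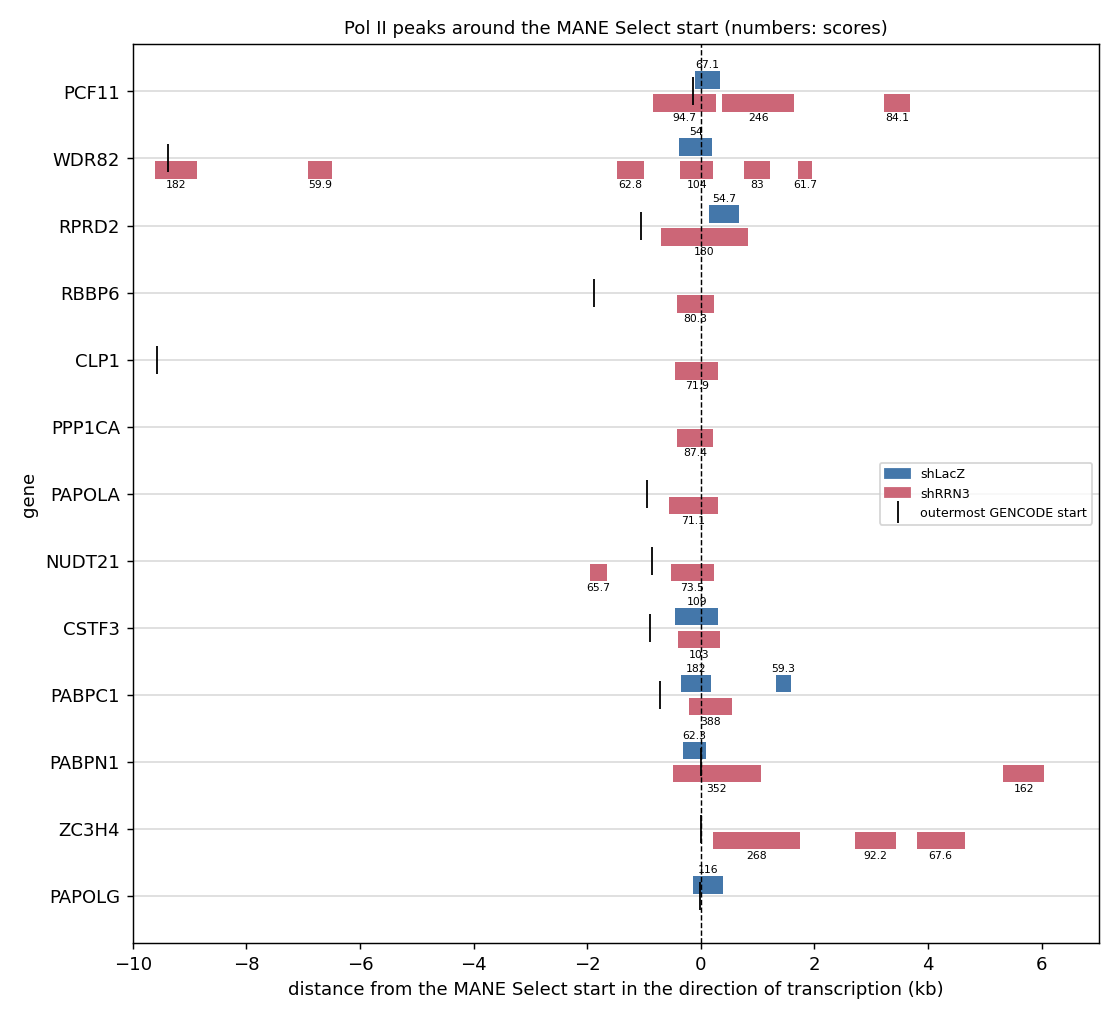
Peaks around the MANE Select start (kb, positive in the direction of transcription) for 13 genes, with shLacZ above and shRRN3 below each line and the score printed beside each peak. Black ticks mark the outermost GENCODE start where it falls within the axis. At RBBP6, CLP1 and PPP1CA the peaks meet the MANE start and not the outermost one. The same holds for the shRRN3 peak at RPRD2, while the shLacZ peak there begins past the MANE start.

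The poly(A) polymerase and poly(A) binding protein genes held the strongest TSS peaks. PABPC1, the main cytoplasmic poly(A) binding protein, had the highest member score in each list, 182 in shLacZ (percentile 94.6) and 388 in shRRN3 (percentile 98.8). It also had a shLacZ peak of 59.3 in intron 1, with no shRRN3 body peak. PABPN1, the nuclear poly(A) binding protein, had a shLacZ TSS peak of 62.3 over 405 bp, at percentile 34.4. In shRRN3 its TSS peak scored 352 over 1546 bp, at percentile 98.3. The shLacZ peak therefore ranked in the lower part of its list and the shRRN3 peak near the top. The PABPN1 start also lies inside the read-through gene BCL2L2-PABPN1, which shares its exons.

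PAPOLA and PAPOLG encode nuclear poly(A) polymerases, and their peaks fell in opposite lists. PAPOLA had a shRRN3 TSS peak of 71.1, at -127 bp from the MANE start, and none in shLacZ. PAPOLG had a shLacZ TSS peak of 116 over 532 bp, at percentile 85.6, and the nearest shRRN3 peak was 124279 bp away. Of the 190 shLacZ TSS peaks that scored at least as high, 6 (3.16%) overlapped no shRRN3 peak, a comparison chosen after the PAPOLG value was seen. The other shLacZ TSS peaks of the members, 8 of 9 (88.9%, exact 95% interval 51.8 to 99.7), each shared at least 1 bp with a shRRN3 peak, beside 83.5% of all shLacZ TSS peaks. When the overlap had to cover 50% of both peaks it was 5 of 9 (55.6%) beside 56.4%. In the other direction, 9 of the 24 shRRN3 TSS peaks (37.5%, 18.8 to 59.4) shared at least 1 bp with a shLacZ peak, beside 24.5% of all, and 20.8% beside 17% did so over 50% of both. These intervals, like those below, cover counting error only.

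Among the exonuclease and the readers of the Pol II tail, SCAF8 had a TSS peak in both lists. SCAF8 and SCAF4 bind the phosphorylated Pol II tail and limit early termination. The SCAF8 peak scored 94.2 over 1307 bp in shLacZ and 153 over 1969 bp in shRRN3, and both were the widest TSS peaks of the members in their lists. SCAF8 also had a low shRRN3 body peak of 59.9 in intron 8. SCAF4 had a weak shRRN3 TSS peak of 58.7 and body peaks of 50.4 in shLacZ and 53.2 in shRRN3, both in intron 19 and not overlapping. XRN2, the exonuclease that degrades the downstream RNA, had a TSS peak of 104 in shRRN3 alone.

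The RPRD proteins bind the Pol II tail and help to remove its phosphate marks. RPRD2 had a peak within 1 kb of its MANE start in both lists, with scores of 54.7 in shLacZ and 180 in shRRN3, and the latter ran for 1529 bp. RPRD1B had shRRN3 peaks of 51.2 and 53.4, both beyond the end of its MANE transcript but within the longest annotated one. RPRD1A had no peak.

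Of the phosphatase genes, SSU72 had a TSS peak in both lists. SSU72 removes phosphate from the Pol II tail. Its scores of 52.9 in shLacZ and 82.4 in shRRN3 were at percentiles 9.67 and 46.5, and the peaks overlapped over most of their length. PPP1CA, the catalytic subunit of the PNUTS phosphatase complex, had a shRRN3 peak of 87.4 at -102.5 bp from its MANE start. WDR82, another part of that complex, had a peak at its MANE start in both lists, 54.0 in shLacZ and 104 in shRRN3, and 4 further shRRN3 body peaks of 59.9 to 83.0. The WDR82 peak counted at the outermost start, 182 in shRRN3, was within 1 kb of the start of GLYCTK.

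PPP1R10, which encodes PNUTS itself, had no peak in either list. The nearest peaks were 2235 kb from its start in shRRN3 and 2394 kb in shLacZ. Another 141 protein-coding genes start within 2 Mb of PPP1R10, and by that distance none of them could have a TSS peak either. The reason was not tested.

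Integrator and restrictor end short or unproductive transcripts. ZC3H4, the restrictor subunit, had a shRRN3 TSS peak of 268 over 1531 bp, at percentile 96.0, and none in shLacZ. Its midpoint was 987 bp into the gene, in intron 1, so it lay just inside the 1 kb limit. The peak covered the start of SAE1, on the other strand, and not that of ZC3H4. In intron 2 of ZC3H4, 2 body peaks of 92.2 and 67.6 followed. INTS11, the Integrator endonuclease, had a shRRN3 TSS peak of 59.2 shared with the divergent start of CPTP. INTS1 had no peak.

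SLBP, which binds the stem loop at the end of histone mRNA, had a shRRN3 TSS peak of 102, within 1 kb of TACC3. The splicing factor gene CDC40 also had one of 102, within 1 kb of WASF1, and an intron 4 peak of 63.0. Neither had a peak in shLacZ. ZC3H11A, an mRNA export factor gene, had none in either list.

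**Figure D4:**
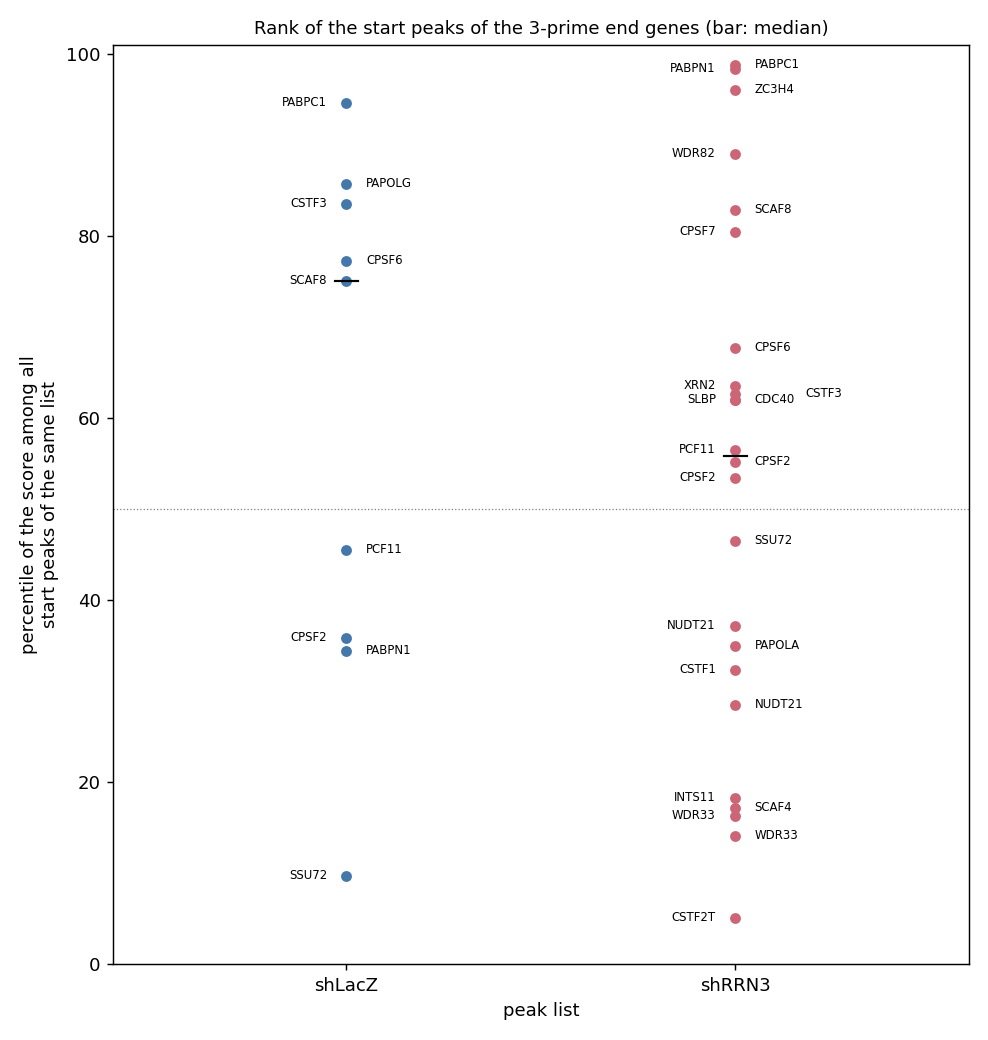
Percentile of the score of each member's TSS peak among all TSS peaks of the same list, with the gene named beside each point and a bar at the median. The medians were 75 for 9 peaks in shLacZ and 55.8 for 24 in shRRN3, with PABPC1 at the top of both.

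The members' TSS peaks were widely spread in rank, from percentile 9.67 to 94.6 in shLacZ and from 5.06 to 98.8 in shRRN3. In shLacZ the scores had a median of 94.2 (52.9 to 182), beside a median of 69.9 and a highest score of 824 for all TSS peaks of that list. In shRRN3 the median was 93.8 (52.7 to 388), beside 86.6 and a highest score of 1580. Above the middle of the list were 5 of 9 peaks in shLacZ and 14 of 24 in shRRN3. Peaks were somewhat wider than in the list as a whole, with medians of 520 bp beside 479 bp in shLacZ and 734 bp beside 618 bp in shRRN3.

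Within shRRN3, the 8 genes that also had a shLacZ TSS peak had a median top score of 107 (82.4 to 388) and the 13 without had 73.5 (52.7 to 268), so the ranges overlapped. Median percentiles were 65.1 and 37.2. The same split was not made over all genes, so the gap cannot be called particular to these genes. ZC3H4, WDR82 and CPSF7 were the highest of the 13, and each of those peaks lay within 1 kb of another gene’s start. With only the 3920 highest shRRN3 peaks kept, as many as shLacZ had on the primary chromosomes, PABPN1, PABPC1, CPSF6, CSTF3 and SCAF8 had a TSS peak in both (13.5% of members beside 4.24% of all genes). WDR82, CPSF7, ZC3H4 and XRN2 then had one in shRRN3 alone (10.8% beside 5.5%), and PAPOLG, PCF11, CPSF2 and SSU72 in shLacZ alone (10.8% beside 3.32%). At PCF11 the shRRN3 body peak of 246 was among those kept, and its midpoint was 1153 bp from the start. With lists of equal length, 9 members had a TSS peak in each, beside 7.56% of all genes in shLacZ and 9.74% in shRRN3.

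Of the 21 members with a shRRN3 TSS peak, 8 (38.1%, exact 95% interval 18.1 to 61.6) also had one in shLacZ, beside 27% (25.8 to 28.3) of all genes. In the other direction it was 8 of 9 (88.9%, 51.8 to 99.7) beside 84.8% (82.9 to 86.6). Both intervals of the members hold the value of all genes, and they are wide because the members are few.

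Shared promoters were common among these genes. For 15 of the 37 (40.5%) another protein-coding gene started within 1 kb, beside 17.4% of all genes. Such a neighbour was present at 8 of the 13 members with a TSS peak in shRRN3 alone (61.5%). Among all genes with a shRRN3 TSS peak the share was 32.8%. It was present at 1 of the 9 members with a shLacZ TSS peak (11.1%), beside 31.4% of all such genes. Another protein-coding start lay within 1 kb of 10 of the 24 shRRN3 TSS peaks and 1 of the 9 in shLacZ, at CPSF2, which adjoins NDUFB1. At those places the polymerase of either gene can give the peak, and its part in the counts was not tested.

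Taking the MANE start in place of the outermost one gave 11 members with a TSS peak in shLacZ (beside 8.24% of 19061 genes) and 25 in shRRN3 (beside 25.6%). RPRD2 and WDR82 joined the genes with a peak in both lists, which then numbered 10 (27% of members beside 7.01% of all genes). CLP1, RBBP6 and PPP1CA joined the shRRN3-alone group, which then numbered 15 (40.5% beside 18.5%). Peaks near these starts sat mostly just upstream, with a median midpoint of -78.5 bp for 11 peaks in shLacZ and -70.5 bp for 28 in shRRN3. Within 300 bp of the MANE start were 9 of those 11 and 21 of those 28.

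Body peaks in shRRN3 were numerous but mostly low. The bodies of the 37 genes, 1.68 Mb in all, held 24 shRRN3 peaks (14.3 per Mb, beside 5.22 over all genes) and 4 shLacZ peaks (2.38 per Mb, beside 1.18). Of the 24, 6 lay within 1 kb of a MANE start. The 15 that lay over 2 kb from both kinds of start fell in 11 genes. They had a median score of 59.9 (51.2 to 98.8) and a median width of 320 bp, and none overlapped a shLacZ peak. The same overlap was not counted over the body peaks of all genes, so it cannot be called particular to these genes. Among genes with a shRRN3 TSS peak, 10 of 21 members (47.6%) also had a body peak, beside 29.8% of all such genes. In shLacZ it was 1 of 9 (11.1%) beside 12.3%, and the bodies of those genes held 2.42 peaks per Mb beside 3.98 over all genes with a shLacZ TSS peak. The members were somewhat longer than other genes, with a median of 35.2 kb beside 27.5 kb.

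The ends of 4 members are shown with the final 30 bases of their MANE Select transcript, because peaks lay past these ends. The bases come from the GENCODE release 44 transcripts (GRCh38), 5′ to 3′ on the gene's strand, and capitals mark AATAAA. They are CPSF7 at chr11:61402729-61402758 (-), PABPN1 at chr14:23326134-23326163 (+), PCF11 at chr11:83185765-83185794 (+) and SCAF4 at chr21:31671000-31671029 (-).
CPSF7: attgtgtAATAAActtgatgacgctgtcaa
PABPN1: catgAATAAAgttgtttttgaaAATAAAaa
PCF11: atacatgtAATAAAtagaatgatgaagaaa
SCAF4: taatgtgtgctattcttcctacactgcatt

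The hexamer was present in all of these but SCAF4, whose last 50 bases held neither AATAAA nor ATTAAA. Over the 37 genes, AATAAA was in the last 50 bases of 26 (70.3%, beside 65.2% of 19061 transcripts), ATTAAA without it in 2 (5.41%, beside 14.3%) and neither in 9 (24.3%, beside 20.4%).

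PABPN1 had the strongest signal past an end. Its shRRN3 peak, at 23326774 to 23327506 on chromosome 14, scored 162.5, and its midpoint was 977 bp past the TTS. The CPSF7 shRRN3 peak scored 67.3 and lay 1534.5 bp past the outermost end. In shLacZ the SCAF4 peak of 68.8, only 197 bp wide, lay 836 bp past the end, and the nearest shRRN3 peak was 3389 bp away. No member had a peak past its end in both lists. With MANE ends the shRRN3 count became 3 (8.11% of members beside 4.56% of all genes). The PCF11 peak of 80.8, beside PCF11-AS1, then lay past the end.

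**Figure D5:**
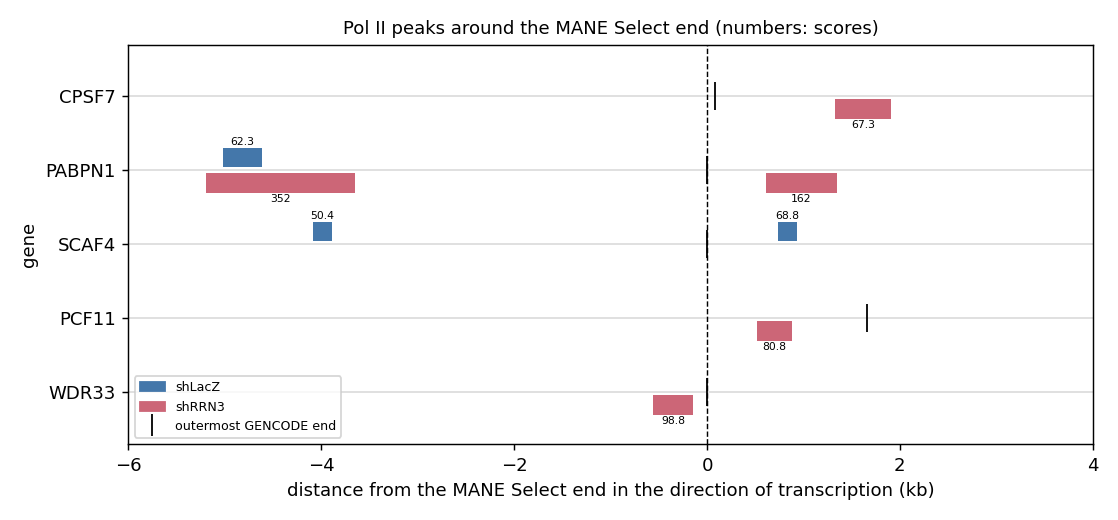
Peaks around the MANE Select end (kb, positive past the end) of 5 genes, with shLacZ above and shRRN3 below each line, scores printed and the outermost GENCODE end as a black tick. PABPN1, CPSF7 and PCF11 have a shRRN3 peak past the MANE end, SCAF4 has a shLacZ peak there, and the WDR33 peak lies just before it.

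Extending the window to 10 kb past the end gave 2 members with a peak in shLacZ, beside 4% of all genes, and 6 in shRRN3, beside 12.1%. CPSF3, which has no peak in its own gene, had the added shLacZ peak, with a score of 64.6 and a midpoint 2.05 kb past the end. The protein-coding gene IAH1, on the same strand, reaches into the 2 kb past that end, so the peak cannot be assigned to CPSF3 alone. In shRRN3, CPSF6 had peaks of 62.1 and 93.3 at 4.08 and 9.36 kb, and SCAF4 had one of 55.5 at 4.46 kb. The higher CPSF6 peak was within 1 kb of the start of the pseudogene C1GALT1P1, and the SCAF4 peak within 1 kb of a long noncoding RNA start. The CPSF4 and CLP1 peaks, at 8.81 and 5.94 kb, stood at the starts of ATP5MF and ZDHHC5.

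In all, 10 of the 37 genes (27%, beside 62.5% of all genes) had no peak in any region of either list: CPSF1, CPSF3, CPSF4, FIP1L1, CSTF2, SYMPK, RPRD1A, PPP1R10, INTS1 and ZC3H11A. The distance from their start to the nearest peak ran from 11.4 to 2235 kb in shRRN3 and from 30.9 to 2394 kb in shLacZ. Such genes need not be silent, since a peak had to reach the caller's threshold and the files give no depth. The 37 genes spread over 17 chromosomes and from 4.11 kb (CSTF2T) to 113 kb (RPRD2) in length.

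Of the 42 other genes of the pathway, INTS13, INTS5, PABPC4, PCBP1, PCIF1, TTF2 and ZC3H14 had a TSS peak in both lists. INTS6, INTS15 and PHF3 had one in shLacZ alone and 15 genes in shRRN3 alone. INTS5, PABPC4 and CTDSP1 had a peak within 2 kb past the end in both lists. None of the 37 did, and over all genes the share was 0.973%. INTS5 and INTS6 are further Integrator subunits, PABPC4 is a second cytoplasmic poly(A) binding protein, and CTDSP1 is a Pol II tail phosphatase.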

How the data were processed

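Pol II ChIP was made from SK-OV-3 cells with the ChIP-IT Express Kit and sequenced on BGISEQ-500. For each library the authors called peaks and deposited their positions with a score. The scale of the deposited score is taken to be the one MACS gives, minus 10 times the log10 of the p-value, but the caller's version and settings, the aligner and the use of the inputs are not given in the sources used here. The submitters' processing notes name hg38. Per list, 3920 (shLacZ) and 14322 (shRRN3) peaks lay on primary chromosomes, and 33.8% and 30.5% of them were within 1 kb of a protein-coding start, which checks the build.

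Genes came from GENCODE release 44. A peak was placed by its midpoint: start, within 1 kb; body, from there to the gene's end; past end, within 2 kb. A start peak was counted in no other region of that gene. Every peak of every member was described. Exact 95% binomial intervals were made with scipy 1.17.1, tables with pandas 2.3.3 and numpy 2.4.6, figures with matplotlib 3.10.9, in Python 3.11.15. The placing of peaks was tested on simulated lists. Overlap meant at least 1 shared bp. Alternatives were other windows, MANE Select bounds, a score minimum, a reduced shRRN3 list, any base of a peak in place of its midpoint, and body peaks beside a transcript start left out. The members and lists were chosen with earlier results of these data known. Reads and inputs were not analysed here. Ends are shown for few genes, and 1 end sequence is not reported here.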

Additional observations from a re-analysis of the deposited data

How the results depend on the processing

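With 1 library per hairpin no replicate could be left out. No paired analysis was possible because neither hairpin had more than 1 library. Of 54 values recomputed for 8 counts of members, 42 stayed within 1.5 times the count given above and 12 moved further. The 42 include the shLacZ counts under the reduced shRRN3 list, which that setting could not change. Members' shares fell below those of all genes in 2 of the 54, both for body peaks in shLacZ. The 2 overlap shares fell from 88.9% to 55.6% (shLacZ) and from 37.5% to 20.8% (shRRN3) when 50% of both peaks had to be shared. Both became over 1.5 times lower. Over all TSS peaks the shares also fell, from 83.5% to 56.4% (shLacZ) and from 24.5% to 17% (shRRN3). Keeping peaks that scored at least 66.05, the shLacZ median, left 0 members with a body peak in shLacZ (4 in the report), 8 in shRRN3 (15) and 7 with any peak in shLacZ (12), beside 2.61%, 12.3% and 7.16% of all genes. Reducing shRRN3 to its 3920 highest peaks left 9 members with a start peak (21), 3 with a body peak (15), 1 with a peak past the end (2) and 11 with any peak (26), beside 9.74%, 6%, 1.76% and 15.3% of all genes. The counts fell with fewer peaks by construction. The start share stayed above the background, while the body share came near it (8.11% beside 6%). Placing peaks by any base gave 2 members past the end in shLacZ (1), as did a window of 10 kb, which gave 6 in shRRN3 (2). In shLacZ, 2 members (5.41% beside 3.66%) had a body peak with MANE Select bounds and 1 (2.70% beside 3.4%) when peaks beside a transcript start were left out (4). The files give no read numbers, so the depth at which a peak could be found cannot be compared.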
